A study of Mus musculus with 10 samples.

Results

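The transcripts of the alpha-actinins and calsarcins of striated muscle were compared in 3 skeletal muscles of the mouse. The genes were chosen by name, as the 2 sarcomeric alpha-actinin genes Actn2 and Actn3 and the 3 calsarcin (myozenin) genes Myoz1, Myoz2, and Myoz3, and these 5 were all among the 16112 genes counted. RNA was sequenced from 3 extensor digitorum longus (EDL), 3 psoas, and 4 soleus samples, taken from mice aged 32 to 54 days that were homozygous wild type in a colony of strain B6C3Fe a/a-Ttnmdm/J, which also carries the mdm allele of titin. The mice had been harvested for another study as well. By library, ages were 42, 54, and 44 days in EDL and in psoas and 42, 44, 32, and 44 days in soleus. EDL and psoas are fast-twitch muscles and soleus is a mixed muscle with many slow fibers. The 10 libraries carry 7 animal codes, 3 of which mark libraries of both soleus and a fast muscle, and 5 libraries came from males, 4 from females, and 1 from a mouse of unstated sex (soleus 3). The study's methods give fewer mice than codes, so further libraries may share a mouse.

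Alpha-actinins are antiparallel dimers that cross-link actin filaments at the Z-disk, the boundary between neighboring sarcomeres. Actn2 encodes the form that is made in skeletal muscle fibers of all types and in the heart, and Actn3 encodes the form of fast fibers. Calsarcins bind alpha-actinin, filamin, and telethonin at the Z-disk and tether calcineurin, the calcium-dependent phosphatase that acts on NFAT factors and is known for its role in the slow fiber program. Myoz2 is known as the calsarcin of slow fibers and the heart, and Myoz1 and Myoz3 as those of fast fibers.

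Total counts ranged from 15016122 to 47825953 in EDL, from 13820086 to 50431713 in psoas, and from 12737971 to 26848423 in soleus. The muscle labels were compared with fiber markers first, as summed CPM (counts scaled to a common library total). The 8 slow fiber markers summed to between 19712 and 31555 CPM in soleus, against 77.1 to 369 in EDL and 38.9 to 115 in psoas. The 9 fast fiber markers summed to between 26771 and 38859 CPM in soleus, 76895 and 103118 in EDL, and 107562 and 113494 in psoas. The reads of EDL 1, EDL 2, psoas 1, and psoas 2 were quality trimmed by the authors before alignment and those of the other 6 libraries were not, so every soleus library is untrimmed.

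The 5 genes lie on different chromosomes, each on the minus strand of GRCm38. Actn2 spans chr13:12269426-12340760, Actn3 chr19:4861216-4877909, Myoz1 chr14:20649107-20656540, and Myoz2 chr3:123006206-123035015. Since Actn2 and Actn3 are similar in sequence, it was checked whether a read of 75 bases could come from either. The longest run that their transcripts share is 51 bases, in coding exon 10 of both genes. No read of the full 75 bases therefore fits both without a mismatch. Reads of the trimmed EDL and psoas libraries may be shorter than this shared run, and the check does not cover such reads. The exon 10 stretch around this run is shown for both genes (chr13:12291666-12291812 and chr19:4867819-4867965, 147 bases each, minus strand, 5′ to 3′), with the 21 bases that differ in capitals.
Actn2: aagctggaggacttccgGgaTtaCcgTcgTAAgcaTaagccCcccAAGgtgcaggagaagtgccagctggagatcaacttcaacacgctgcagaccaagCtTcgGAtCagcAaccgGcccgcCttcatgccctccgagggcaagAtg
Actn3: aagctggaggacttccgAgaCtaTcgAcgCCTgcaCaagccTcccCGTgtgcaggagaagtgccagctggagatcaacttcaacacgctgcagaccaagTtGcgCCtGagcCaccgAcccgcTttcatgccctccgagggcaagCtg
Between the capitals on either side, the shared run is the unbroken lower-case stretch in the middle (chr13:12291714-12291764 and chr19:4867867-4867917). Of all 75-base stretches in the annotated transcripts of Actn2, Actn3, Myoz1, and Myoz2, 0 occur in a transcript of another gene. In Myoz3, 52 of 3347 (1.55%) occur in transcripts of 51 other genes, and its level is uncertain to that extent, since the handling of reads with several alignments is not given in the sources used here.

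Actn2 was highest in soleus and Actn3 in psoas. Levels are given as FPKM (normalized CPM per kilobase of exon), which can be compared between genes. Actn2 was at 37.4, 29.7, and 57.4 FPKM in EDL, at 70.4, 58.7, and 133 in psoas, and at 282, 393, 387, and 414 in soleus. The 3 muscles did not overlap, in the order EDL, psoas, soleus, with means of 41.5 ± 14.3 (SD, n = 3), 87.3 ± 39.8 (n = 3), and 369 ± 59.1 (n = 4). Actn3 was at 777, 657, and 1234 FPKM in EDL, at 1534, 1841, and 2018 in psoas, and at 108, 29.5, 32.2, and 119 in soleus. Soleus was lowest here, with means of 72.1 ± 47.8 in soleus, 889 ± 304 in EDL, and 1798 ± 245 in psoas, again without overlap. Of all genes, 29.6% did not overlap in psoas vs EDL, 29.5% in soleus vs EDL, and 25.8% in soleus vs psoas. By mean FPKM among 16032 genes with a symbol, Actn3 ranked 60 in EDL, 41 in psoas, and 446 in soleus, and Actn2 ranked 696, 370, and 95.

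**Figure D1:**
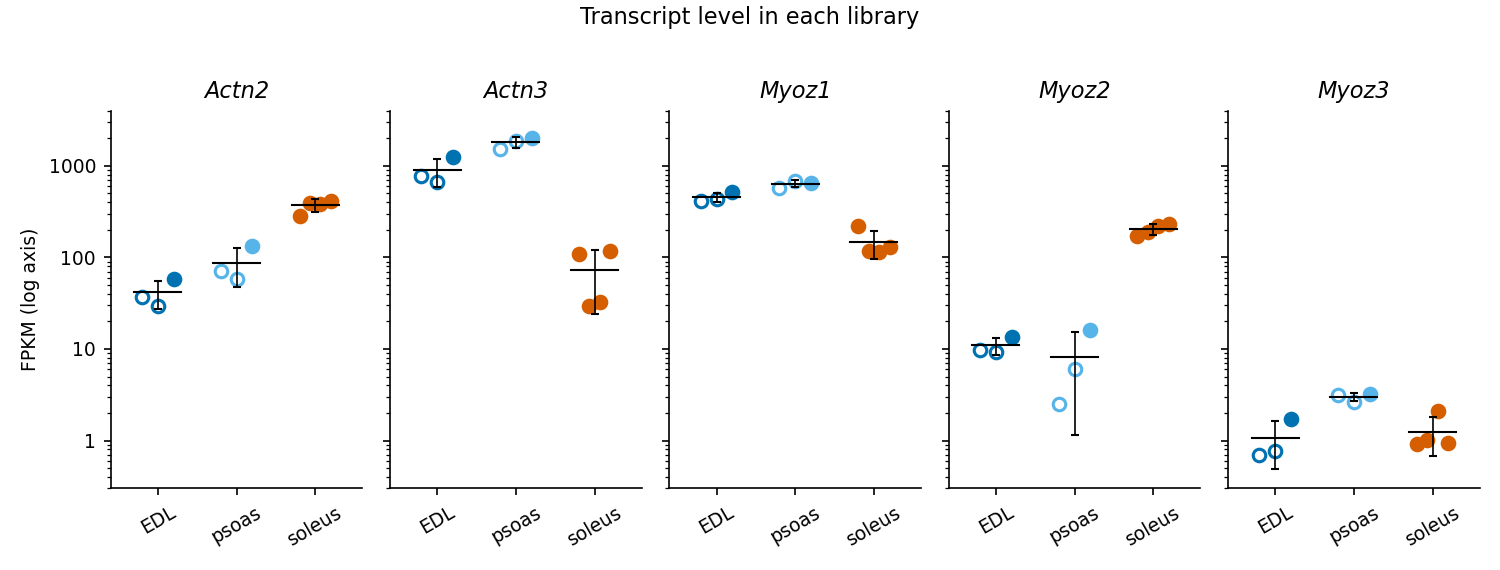
FPKM of the 5 genes in each library, on a common log axis; open circles are libraries with trimmed reads, filled circles untrimmed ones, and bars the mean and SD of each muscle. Actn2 and Myoz2 were highest in the 4 soleus libraries, Actn3 and Myoz1 were lowest there, and Myoz3 stayed between 0.700 and 3.21 FPKM throughout.

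Among the calsarcins, Myoz1 was the abundant form of both fast muscles and Myoz2 was far higher in soleus than in either. Myoz1 was at 417, 429, and 517 FPKM in EDL, at 577, 680, and 655 in psoas, and at 221, 118, 114, and 129 in soleus. The highest soleus library, soleus 1, stayed below the lowest EDL library. Myoz2 was at 9.86, 9.35, and 13.6 FPKM in EDL, at 2.51, 6.00, and 16.0 in psoas, and at 171, 191, 221, and 233 in soleus. EDL and psoas overlapped for Myoz2, with means of 10.9 ± 2.34 and 8.18 ± 7.02, and psoas held both the lowest and the highest of these 6 values. Myoz3 was at 0.700, 0.768, and 1.73 FPKM in EDL, at 3.16, 2.66, and 3.21 in psoas, and at 0.916, 1.03, 2.11, and 0.937 in soleus. Psoas stood above both other muscles for Myoz3, and EDL and soleus overlapped. Myoz3 rests on 46 to 412 reads per library, whereas the lowest count of the other 4 genes was 324 (Myoz2 in psoas).

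RefSeq promoter sequences for 250 bases before to 50 bases after the start site were matched for 2 of the 5 genes, Actn2 and Myoz2, both of which rose in soleus, and these are shown (GRCm38.p6, chr13:12340683-12340982 and chr3:123034938-123035237, minus strand, 5′ to 3′). Capitals mark matches to the E-box, CANNTG (N being any base), of which MyoD and related factors bind only some forms.
Actn2: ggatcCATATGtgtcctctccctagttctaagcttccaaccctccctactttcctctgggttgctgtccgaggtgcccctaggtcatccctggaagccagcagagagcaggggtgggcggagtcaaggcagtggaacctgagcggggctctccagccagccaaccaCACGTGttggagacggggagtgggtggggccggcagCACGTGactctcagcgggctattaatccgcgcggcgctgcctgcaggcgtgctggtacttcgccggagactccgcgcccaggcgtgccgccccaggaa
Myoz2: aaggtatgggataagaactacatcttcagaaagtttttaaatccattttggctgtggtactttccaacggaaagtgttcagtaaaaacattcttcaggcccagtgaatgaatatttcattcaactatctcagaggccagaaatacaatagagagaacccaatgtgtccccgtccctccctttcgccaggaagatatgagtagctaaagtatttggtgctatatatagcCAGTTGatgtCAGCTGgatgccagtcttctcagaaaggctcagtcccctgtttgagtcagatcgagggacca
Actn2 held 3 such matches, which began 245, 84, and 48 bases before the start site, and Myoz2 held 2, which began 22 and 12 bases before it. An E-box match is common, being found in 72.3% of 32851 promoters of this length. Of these 2 windows, only that of Myoz2 held a MEF2 motif, which began 33 bases before the start site, and 3.19% of the promoters hold it. The NFAT core GGAAA, counted on both strands as were the other motifs, was found 1 time in Actn2 and 2 times in Myoz2, and 61.3% of promoters hold it. MCAT (CATTCC, 14.7% of promoters), TATAAA (13.6%), and CArG (1.63%) gave 0 matches in both windows. TATAAA was searched in these exact letters only. The MEF2 match of Myoz2 reads ctatatatag, so the letters do not tell a MEF2 site from a looser TATA form there. The windows differ in base composition, with 64.7% G and C and 19 CG pairs in Actn2 and 42.7% and 4 in Myoz2, against a median of 52.7% over all promoters. These matches are descriptions of the letters in these windows.

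To determine which of these differences exceeded the spread between libraries, the 3 muscles were compared pairwise in an edgeR quasi-likelihood fit. A call required a fold change over 2 and a p under 0.01 after Benjamini-Hochberg adjustment over all genes. As bulk tissue was sequenced, fewer fibers that express a gene and less of its RNA per fiber cannot be told apart.

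In soleus vs EDL, 4 of the 5 genes were called, whereas 5.77% of all 16112 genes were. Of these 4, 2 were higher and 2 lower in soleus, against 3.59% and 2.18% of all genes. Actn2 rose 8.90-fold (log2 fold change 3.15, SE 0.35, adjusted p = 0.000248) and Myoz2 rose 18.7-fold (4.22, SE 0.54, adjusted p = 0.000545). Actn3 fell 12.3-fold (log2 fold change -3.63, SE 0.51, adjusted p = 0.000907) and Myoz1 fell 3.12-fold (-1.64, SE 0.24, adjusted p = 0.00132). Thus Actn2 and the slow fiber calsarcin were higher in soleus, and the fast fiber alpha-actinin and calsarcin were lower. Myoz3 had a log2 fold change of 0.24 with a 95% confidence interval of -0.58 to 1.06 (adjusted p = 0.676), and its sign turned to -0.17 without soleus 3 and to -0.04 without EDL 1. The other 4 kept their call when any 1 library was left out. Myoz1 was not called against a null of a 2-fold change (glmTreat, adjusted p = 0.0845), and in the untrimmed libraries alone, with 1 EDL library, only Myoz2 of the 5 was called.

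In soleus vs psoas, the same 4 genes were called, against 5.69% of all genes, again with 2 higher (2.99% of all genes) and 2 lower (2.71%). Actn3 fell 25.0-fold (log2 fold change -4.64, SE 0.53, adjusted p = 0.000272) and Myoz1 fell 4.38-fold (-2.13, SE 0.25, adjusted p = 0.000307). Myoz2 rose 25.1-fold (log2 fold change 4.65, SE 0.55, adjusted p = 0.000358), and without psoas 3, its highest psoas library, the log2 fold change was 5.59. Actn2 rose 4.23-fold (log2 fold change 2.08, SE 0.33, adjusted p = 0.00191). This call was lost without psoas 1 (log2 fold change 1.93, adjusted p = 0.0116) and without psoas 2 (1.88, adjusted p = 0.0101), that is, when psoas 3 was 1 of only 2 psoas libraries. Myoz3 was lower in soleus without passing the threshold (log2 fold change -1.29, SE 0.36, adjusted p = 0.0360), although the groups did not overlap, as for 25.8% of all genes. Myoz3 was called by DESeq2 (adjusted p = 0.00667), with sex as a covariate without soleus 3 (adjusted p = 0.00165), with the animal as a random effect in limma-voom (adjusted p = 0.00451), and without soleus 3, its highest soleus library (log2 fold change -1.67, adjusted p = 0.00824).

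In psoas vs EDL, 0 of the 5 genes were called by edgeR, against 2.11% of all genes. At an unadjusted p under 0.05, 2 of the 5 passed, against 29.0% of all genes. DESeq2 called 2 of the 5, Actn2 and Myoz3 (6.80% of all genes), and limma-voom 1, Myoz3 (2.19%). Actn2 had a log2 fold change of 1.07 (SE 0.34, 95% confidence interval 0.34 to 1.81, adjusted p = 0.0613), Actn3 of 1.02 (SE 0.52, -0.12 to 2.15, adjusted p = 0.218), and Myoz1 of 0.49 (SE 0.26, -0.09 to 1.06, adjusted p = 0.241). Myoz3 (chr18:60573750-60591788, minus strand) came nearest to a call (log2 fold change 1.53, SE 0.40, 0.66 to 2.39, adjusted p = 0.0316), and it was called without EDL 3 (2.04, adjusted p = 0.00566). Calls among all genes rose from 340 to 963 without EDL 3. For these 4 genes every psoas library lay above every EDL library, and 29.6% of all genes had groups that did not overlap. Myoz2 was the exception, with overlapping groups and a log2 fold change of -0.43 (SE 0.49, -1.49 to 0.64, adjusted p = 0.610). For Actn2, Actn3, Myoz1, and Myoz2, the reported fit therefore separated soleus from each fast muscle but not EDL from psoas. Myoz3 was not called in any comparison of the reported fit. In psoas vs EDL, Actn2 was called in 4 of 26 alternative settings. These included DESeq2 (log2 fold change 1.09, adjusted p = 0.00899) and edgeR with read trimming as a covariate (1.03, adjusted p = 0.00942).

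**Figure D2:**
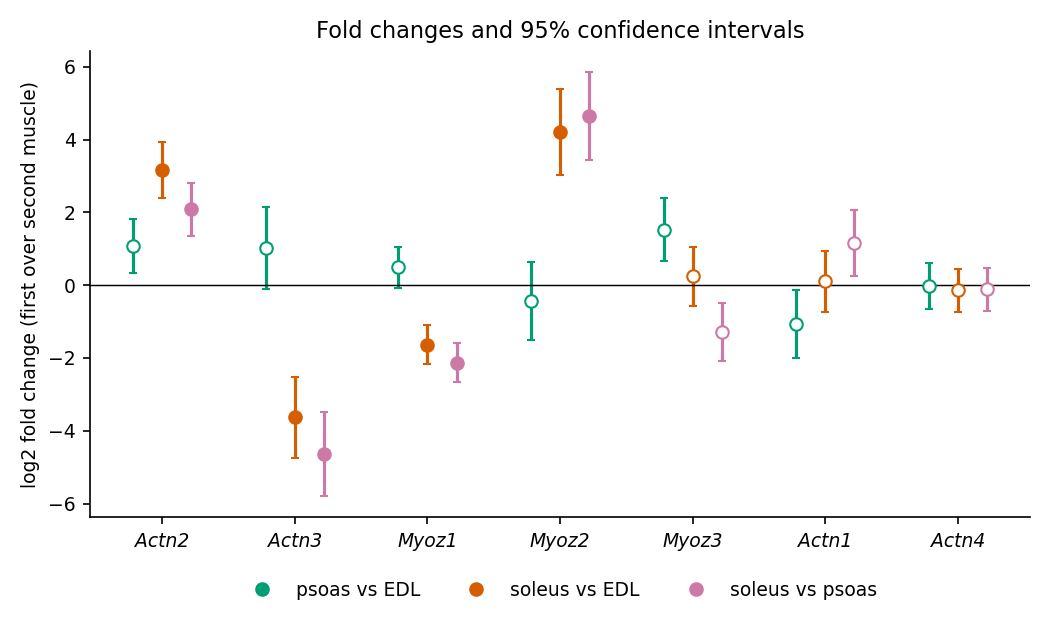
Log2 fold change with its 95% confidence interval in the 3 comparisons, for the 5 genes and the nonmuscle alpha-actinins Actn1 and Actn4; filled points were called. Called points are those of Actn2, Actn3, Myoz1, and Myoz2 in the 2 comparisons with soleus.

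The read trimming and the muscle are partly confounded, and trimmed and untrimmed libraries of the same muscle differed in these genes. In EDL, the untrimmed library (EDL 3) was above both trimmed ones for all 5 genes, by between 1.22-fold (Myoz1) and 2.35-fold (Myoz3) over their mean. In psoas, the untrimmed library (psoas 3) was above both others for every gene but Myoz1, by 2.06-fold for Actn2 and 3.77-fold for Myoz2. Between the trimmed libraries, psoas minus EDL was 0.95 for Actn2, 1.23 for Actn3, 0.57 for Myoz1, and 1.98 for Myoz3 in log2 FPKM, and between the untrimmed ones it was 1.21, 0.71, 0.34, and 0.90. The direction was thus shared for these 4 genes, while for Myoz2 it was -1.31 between trimmed and 0.23 between untrimmed libraries. Against the untrimmed EDL library, the mean of the soleus libraries differed by 2.67 for Actn2, -4.38 for Actn3, -1.88 for Myoz1, 3.89 for Myoz2, and -0.56 for Myoz3. Against the untrimmed psoas library, the values were 1.46, -5.09, -2.23, 3.66, and -1.46. Directions were those of the full comparison, except for Myoz3 in soleus vs EDL. Each within-batch value rests on 1 or 2 libraries of each fast muscle and was not tested.

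The 3 animals with libraries of soleus and a fast muscle gave the directions of the full comparison within the animal for Actn2, Actn3, Myoz1, and Myoz2. Actn2 was 4.01-fold higher in soleus 1 than in psoas 1, 6.85-fold higher in soleus 2 than in EDL 3, and 3.12-fold higher in soleus 4 than in psoas 3. Myoz2 was 68.2-fold, 14.0-fold, and 14.6-fold higher in these pairs. Actn3 was 14.2-fold, 41.8-fold, and 17.0-fold lower in soleus, and Myoz1 was 2.61-fold, 4.38-fold, and 5.07-fold lower. Myoz3 was also lower in soleus in all 3 pairs, by 3.45-fold, 1.68-fold, and 3.43-fold, and the pair with EDL was the closest. For Myoz3 the EDL pair went against the full soleus vs EDL estimate, which was not called and turned sign under some settings. The reads of psoas 1 were trimmed and those of soleus 1 were not, whereas both libraries of the other pairs were untrimmed.

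The form in the majority switched between fast and slow muscle in both families. Actn2 made up 4.45% ± 0.13 (SD over 3 libraries) of the summed FPKM of Actn2 and Actn3 in EDL and 4.55% ± 1.55 (3 libraries) in psoas. In soleus its share was 83.9% ± 10.4 (4 libraries). The soleus libraries split into soleus 2 and soleus 3 at 93.0% and 92.3%, and soleus 1 and soleus 4 at 72.3% and 77.8%. Of the calsarcins, Myoz1 made up 97.4% ± 0.30 in EDL, 98.3% ± 1.01 in psoas, and 40.9% ± 10.3 in soleus. Myoz2 made up 2.33% ± 0.22, 1.23% ± 1.02, and 58.8% ± 10.2 in the same order. It was the majority in soleus 2, soleus 3, and soleus 4 (61.7%, 65.5%, and 64.2%) but not in soleus 1, with 43.6%. Myoz3 held between 0.164% and 0.626% in every library.

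Against EDL and psoas together, the soleus shares of Actn2, Myoz1, and Myoz2 differed in an exact two-sided permutation test (p = 0.00952 each, the lowest value possible for 4 and 6 libraries). Adjusted over the 24 tests of this kind by the Benjamini-Hochberg procedure, this exact permutation p was 0.0457. Against each fast muscle alone, the groups were apart at p = 0.0571 in the same exact permutation test (adjusted p = 0.0914), which is the lowest p possible for 4 and 3 libraries. For the Actn2 share, EDL and psoas were not separated (exact permutation test, p = 0.900). The Myoz3 share did not separate soleus from the fast muscles either (exact permutation test, adjusted p = 0.865).

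**Figure D3:**
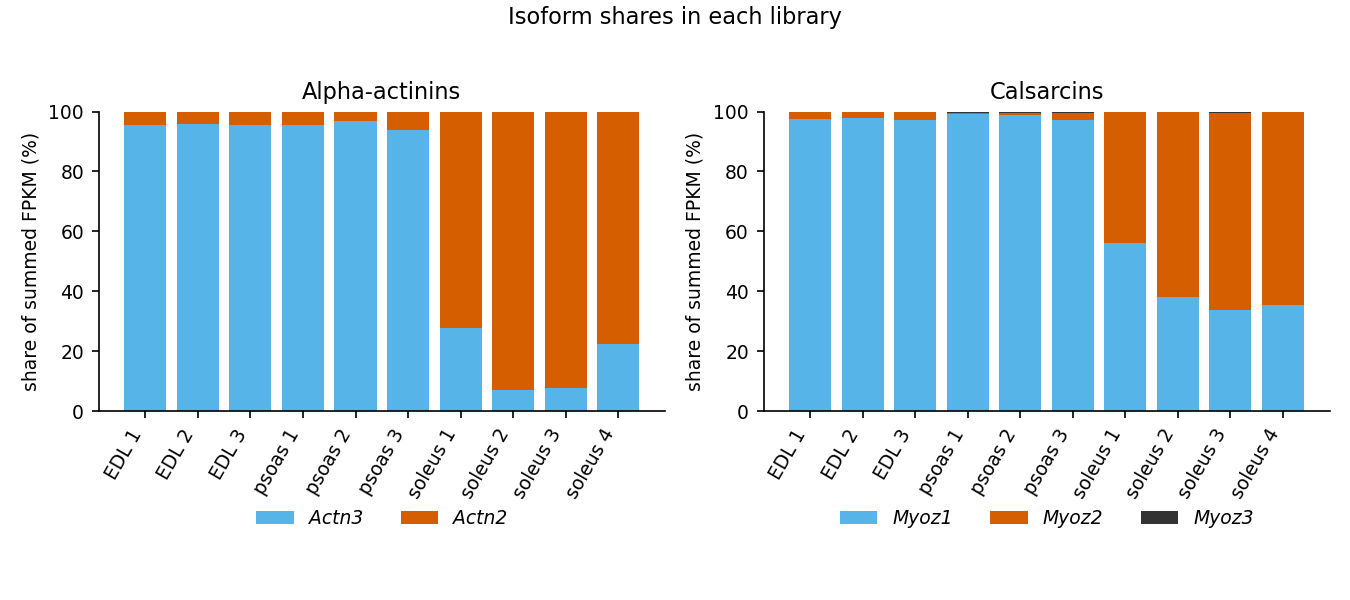
Share of each gene in the summed FPKM of the 2 alpha-actinins (left) and of the 3 calsarcins (right), in percent, 1 bar per library. Actn2 lies between 72.3% and 93.0% in soleus and between 3.09% and 6.17% in the fast muscles; the Myoz3 share, at most 0.626%, is hardly visible.

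The total of each family also differed between the muscles, with psoas highest and soleus lowest. Summed alpha-actinin levels were 931 ± 319 FPKM in EDL, 1885 ± 273 in psoas, and 441 ± 62.7 in soleus, and summed calsarcin levels were 466 ± 57.4, 649 ± 57.7, and 351 ± 35.5. No 2 muscles overlapped in either sum. Psoas was above EDL by 2.09-fold for the alpha-actinins and 1.39-fold for the calsarcins (exact permutation test, p = 0.100 each, the lowest possible for 3 and 3 libraries). Compared with EDL and psoas together, soleus was 2.96-fold lower in alpha-actinins and 1.57-fold lower in calsarcins (exact permutation test, p = 0.00952 each, adjusted p = 0.0457). The calsarcin sum depends on the length correction, since Myoz2 has a longer transcript than Myoz1. With counts not divided by length, soleus was above EDL by 0.12 in log2.

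Actn2 and Myoz2, both higher in soleus, and Actn3 and Myoz1, both lower there, were also set side by side as ratios within a library. These ratios were chosen after the values were seen and were not tested. Actn2 over Myoz2 was between 1.65 and 2.05 in the 4 soleus libraries, at 3.79, 3.18, and 4.21 in EDL, and at 28.0, 9.78, and 8.28 in psoas. Every psoas value was above every EDL value, and every EDL value above every soleus value. Actn3 over Myoz1 was between 1.53 and 2.39 in EDL, 2.66 and 3.08 in psoas, and 0.250 and 0.917 in soleus. Actn3 over Actn2 was between 20.8 and 22.1 in EDL and at 21.8, 31.4, and 15.2 in psoas, which lay within, above, and below the EDL range.

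The nonmuscle alpha-actinins Actn1 and Actn4, which cross-link actin in other cell types and in the cytoskeleton at large, were low in all muscles. Actn1 had mean levels of 0.598, 0.280, and 0.634 FPKM in EDL, psoas, and soleus, and Actn4 of 1.32, 1.30, and 1.20. Neither was called in any comparison by edgeR, DESeq2, or limma-voom, and Actn1 passed an unadjusted p of 0.05 in psoas vs EDL (log2 fold change -1.07) and in soleus vs psoas (1.17). For Actn4 the log2 fold changes lay between -0.14 and -0.02.

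Next, 16 genes of Z-disk proteins that bind alpha-actinins or calsarcins, or lie beside them, were counted. In soleus vs EDL, 6 were called higher and 0 lower, against 3.59% and 2.18% of all genes, with a median log2 fold change of 0.91 over the list against -0.05 over all genes. Csrp3, the muscle LIM protein, was at 8.38, 11.9, and 7.65 FPKM in EDL and at 107, 103, 201, and 180 in soleus (log2 fold change 3.99, SE 0.83, adjusted p = 0.00789). Pdlim1, a PDZ and LIM protein that binds alpha-actinin, was at 3.51, 3.50, and 1.62 FPKM in EDL and at 26.1, 30.4, 31.8, and 34.0 in soleus (3.40, SE 0.32, adjusted p = 0.000109). Neither gene overlapped between the 2 muscles, as for 29.5% of all genes. Flnc (filamin C, 1.85), Synpo2l (1.84), Synpo2 (1.59), and Pdlim5 (1.40) rose less. The list count was 2 without EDL 1, 3 without EDL 2, and 2 with read trimming as a covariate. Calls among all genes were 385, 405, and 371 in these fits, against 929 in the reported fit.

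Between soleus and psoas, of the 16 genes only Pdlim1 was called higher (log2 fold change 3.28, SE 0.32, adjusted p = 0.000144) and only Pdlim7 called lower (-1.32, SE 0.17, adjusted p = 0.000597), against 5.69% of all genes called in either direction. Pdlim7, which belongs to the same PDZ and LIM family, was at 11.4 to 13.8 FPKM in soleus and at 29.7 to 34.7 in psoas, so that 2 members of this family were called in opposite directions. In psoas vs EDL, Ldb3 (the gene of ZASP, which binds alpha-actinin) was the 1 gene of the 16 called, against 2.11% of all genes. It was at 21.3, 23.5, and 24.1 FPKM in EDL and at 64.8, 46.6, and 51.0 in psoas (log2 fold change 1.24, SE 0.18, adjusted p = 0.00310). At an unadjusted p under 0.05, 12 of the 16 passed (29.0% of all genes), the median was 0.80, and DESeq2 called 4 (6.80% of all genes). The list holds Ttn, Neb, Flnc, and Capn3, which the study had reported from these libraries as lower in EDL than in psoas. Its counts in psoas vs EDL are therefore not independent of that earlier result. The Ldb3 call was lost in part of the fits with 1 library left out. Of the list, 0 genes were called without EDL 1, EDL 2, psoas 1, or psoas 3, and 4 without EDL 3. Calls among all genes also moved, from 340 in the reported fit to 69, 87, 92, and 87, and to 963 without EDL 3.

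Of 10 genes of calcineurin, its regulators, and the NFAT factors, the Rcan genes had the largest fold changes in both comparisons with soleus. Rcan2, a regulator that binds calcineurin, was at 4.06, 5.03, and 4.46 FPKM in EDL, at 12.1, 14.5, and 9.70 in psoas, and at 33.4, 28.4, 36.8, and 29.0 in soleus. It was called in all 3 comparisons, with log2 fold changes of 1.42 (SE 0.19, adjusted p = 0.00268) in psoas vs EDL, 2.82 (SE 0.19, adjusted p = 2.26e-05) in soleus vs EDL, and 1.39 (SE 0.18, adjusted p = 0.000592) in soleus vs psoas. Its order, EDL, psoas, soleus, was that of Actn2. Rcan1, known as a transcriptional target of calcineurin and NFAT, rose in soleus vs EDL (1.81, SE 0.29, adjusted p = 0.00185) and vs psoas (1.47, SE 0.28, adjusted p = 0.00531). Ppp3r1, the regulatory subunit of calcineurin, was lower in soleus than in psoas (-1.07, SE 0.15, adjusted p = 0.000797). The catalytic subunits Ppp3ca, Ppp3cb, and Ppp3cc and the 4 NFAT genes were not called in any comparison of the reported edgeR fit. Ppp3cb was called higher in psoas vs EDL by DESeq2 and limma-voom (edgeR log2 fold change 1.36, adjusted p = 0.0112), and Ppp3ca and Ppp3cb were called lower in soleus vs psoas by DESeq2. The count of called genes was thus 1 of 10 in psoas vs EDL (2.11% of all genes), 2 in soleus vs EDL (5.77%), and 3 in soleus vs psoas (5.69%), with medians of 0.42, 0.31, and -0.14. DESeq2 called 2, 2, and 5 of the 10 (6.80%, 9.43%, and 8.58% of all genes), and limma-voom 2, 2, and 3 (2.19%, 6.06%, and 5.08%). Without EDL 1, psoas 1, or psoas 2, 0 genes of the list were called in psoas vs EDL, and 2 without EDL 3. Calls among all genes were 69, 92, and 61, and 963 without EDL 3, against 340 in the reported fit. Without EDL 2, 1 of the list was called in soleus vs EDL (405 of all genes, against 929). In soleus vs psoas between 2 and 5 were called when 1 library was left out, with 5 without EDL 1 or EDL 3 and 2 without any 1 of the psoas libraries, soleus 1, soleus 2, or soleus 4.

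Muscle enzymes known to bind alpha-actinins were taken as a further list of 3 genes. Pygm, glycogen phosphorylase, was at 460, 515, and 969 FPKM in EDL, at 1126, 941, and 1229 in psoas, and at 402, 292, 330, and 294 in soleus. Pygm (log2 fold change -1.74, SE 0.28, adjusted p = 0.00207) and Aldoa, the glycolytic aldolase (-1.87, SE 0.32, adjusted p = 0.00281), were lower in soleus than in psoas. Fbp2, the muscle fructose bisphosphatase, had a log2 fold change of -1.43 (adjusted p = 0.0207) there. Thus 2 of the 3 were called in soleus vs psoas, against 5.69% of all genes. Neither soleus vs EDL nor psoas vs EDL gave a call by edgeR, with 3 and 1 of the 3 at an unadjusted p under 0.05 (5646 and 4679 of the 16112 genes). DESeq2 and limma-voom each called 1 in soleus vs EDL (9.43% and 6.06% of all genes) and 0 in psoas vs EDL (6.80% and 2.19%). In soleus vs psoas, 0 of the 3 were called without soleus 4 and 1 without psoas 2 or soleus 2. Calls among all genes were 602, 493, and 609 in these fits, against 917 in the reported fit. In psoas vs EDL 1 of the 3 was called without EDL 3, where calls among all genes rose from 340 to 963.

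**Figure D4:**
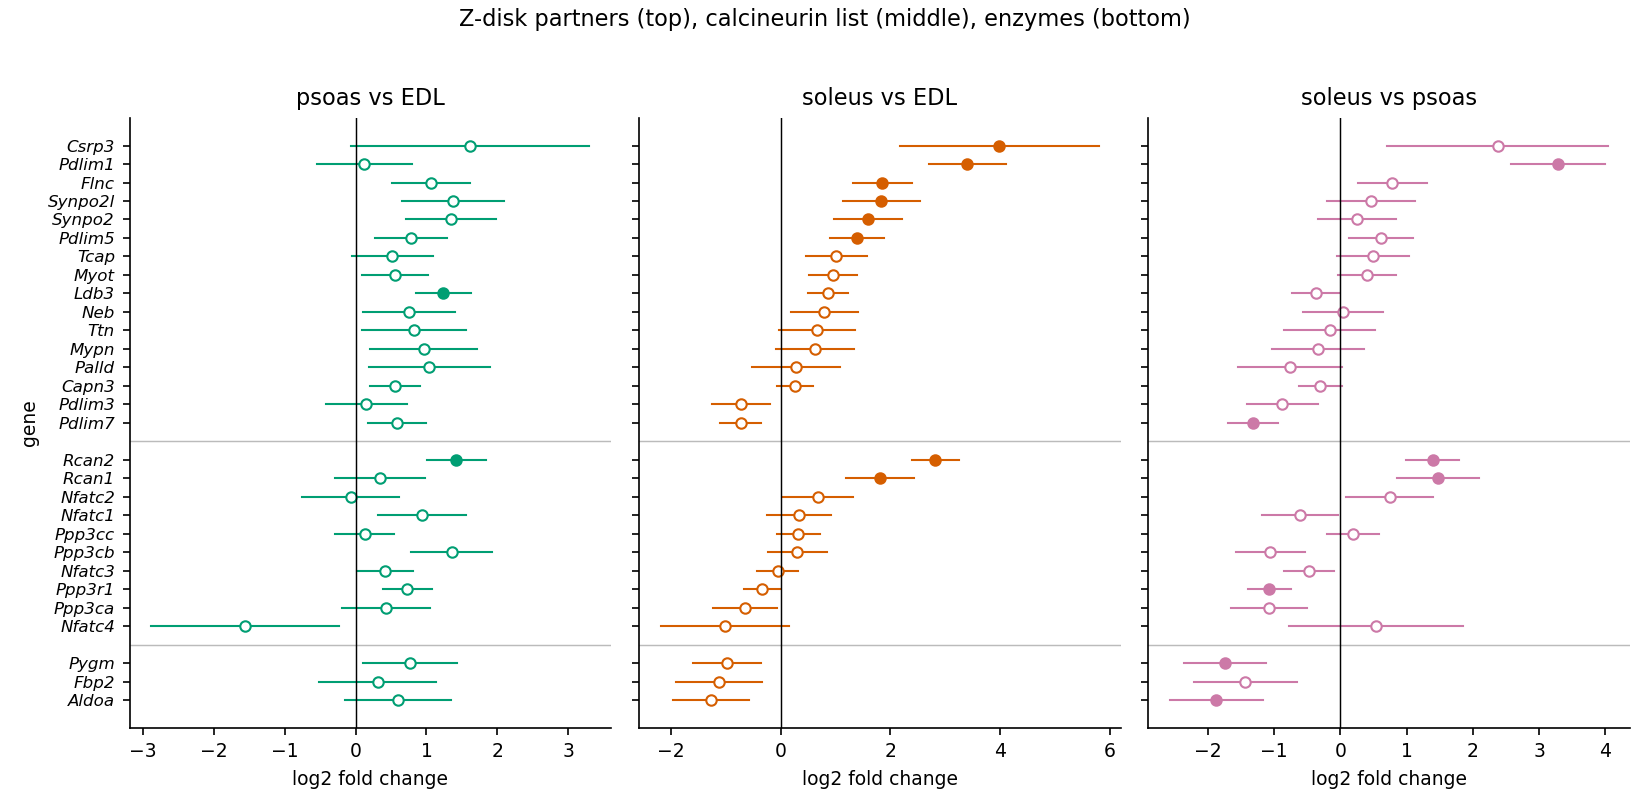
Log2 fold change and 95% confidence interval of the Z-disk partners, the calcineurin genes, and the 3 enzymes in each comparison; filled points were called. Csrp3, Pdlim1, and Rcan2 lie farthest to the right in soleus vs EDL, and the 3 enzymes lie to the left of 0 in both comparisons with soleus.

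The genes whose levels followed each of the 5 most closely were listed by Pearson correlation in log2(normalized CPM + 1) over the 10 libraries, among 6023 genes with a mean of at least 10 CPM. The libraries share animals and fall into muscles, so the values are descriptions. Actn2 was followed most closely by Mavs (r = 0.995), Dusp18 (0.985), and Klhl34 (0.983). Mavs, an adaptor of antiviral signaling, was at 14.2 ± 2.35 CPM in EDL, 21.4 ± 7.09 in psoas, and 51.1 ± 7.17 in soleus. Actn3 was followed by the fast myosin binding protein gene Mybpc2 (0.990), the calcium buffer parvalbumin Pvalb (0.986), and Gpt2 (0.983). The nearest to Myoz1 were Cib2, Phkg1, a subunit of phosphorylase kinase (both 0.983), and Sar1b (0.982). Myoz2 was followed by the slow myosin light chains Myl3 (0.986) and Myl2 (0.984) and by Idh2 (0.982), a mitochondrial dehydrogenase. Myoz3, which was high in psoas, was followed less closely by Slc12a2 (0.966), Mycbp (0.959), and Dlg1 (0.954). The order depends on the measure. By Spearman correlation, Mavs, Sar1b, and Mycbp ranked 1 for their gene, but Mybpc2 ranked 161, Phkg1 220, and Dlg1 176.

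Among the 5 genes themselves, Actn3 and Myoz1 were the closest pair over the 10 libraries (Pearson r = 0.977, Spearman rho = 0.952), followed in size by Myoz1 and Myoz2 (r = -0.926, rho = -0.782). These values include the separation of soleus from the fast muscles. Within the 6 fast muscle libraries, r was 0.974 for Actn3 and Myoz1 and -0.169 for Myoz1 and Myoz2. Actn2 and Actn3, which had r = -0.811 over all libraries, had r = 0.897 within the fast muscles, where psoas was above EDL for both. These points also share read trimming, depth, and animals.

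Markers of other cells and of slow fibers also moved with the muscles. Tendon markers (8 genes) summed to between 937 and 1213 CPM in EDL, 47.8 and 103 in psoas, and 115 and 605 in soleus, and 7 of the 8 were called lower in psoas than in EDL, against 1.57% of all genes. The 5 muscle fibroblast markers summed to between 1501 and 2981, 567 and 901, and 592 and 1255 CPM. None of these 13 genes was at 0 in a library. EDL was thus the muscle with the most of this RNA and psoas the one with the lowest means. Psoas and soleus overlapped in the fibroblast sum. Between EDL and psoas the order was opposite to that of the summed alpha-actinins and calsarcins. The part of such RNA in the results was not tested. Macrophage markers summed to between 68.3 and 156 CPM in EDL, 25.3 and 53.3 in psoas, and 52.0 and 78.7 in soleus. Marker sums of adipocytes, endothelium, Schwann cells, smooth muscle, and erythroid cells overlapped between EDL and psoas. The shares of Myh7, the slow myosin gene, in the 4 adult myosin heavy chain genes were 19.7%, 42.6%, 24.7%, and 33.4% in soleus 1 to 4. Soleus 1, with the most Myoz1 and the least Myoz2 and Actn2 of the 4, also had the lowest Myh7 share. Soleus 2, with the highest Myh7 share, had the highest Actn2 share (93.0%). The order did not hold throughout, since soleus 3, at 24.7%, had the highest Myoz2 share (65.5%). A link with the Myh7 share was not tested.

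**Figure D5:**
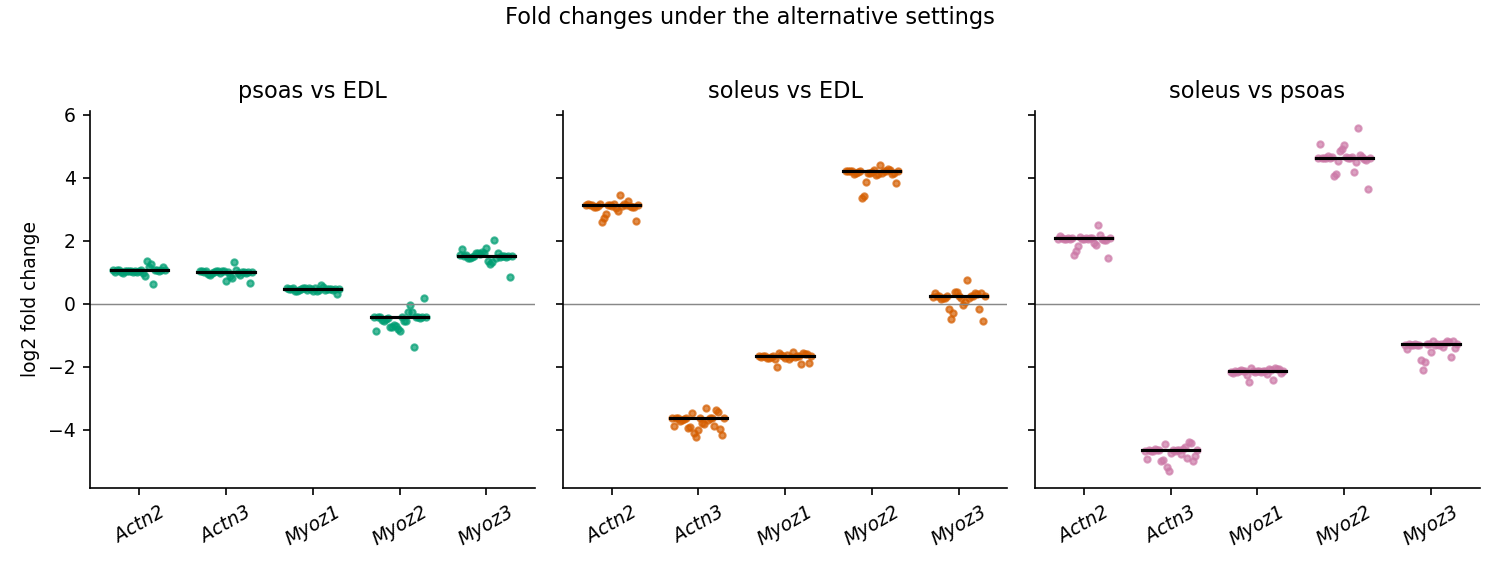
Log2 fold change of the 5 genes in each comparison under the 26 alternative settings (points) and in the reported fit (black lines). Myoz2 keeps its sign and is at least 3.36 in both comparisons with soleus, while Myoz2 in psoas vs EDL and Myoz3 in soleus vs EDL are found on both sides of 0.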

How the data were processed

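RNA-seq libraries of total RNA (stranded, ribosomal and globin RNA removed, paired reads of 75 bases) were made from 3 EDL, 3 psoas, and 4 soleus samples. Per the study's methods, 4 libraries of low read quality were filtered with Trimmomatic 0.32. The authors aligned reads with Tophat 2.1.1 to GRCm38.p4 and counted them per gene. The deposited values are raw counts of 16112 genes, each with at least 10 reads in at least 3 libraries. The strand setting and the handling of reads with several alignments are not given in the sources used here, and the sequencing run of each library was not used.

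Groups were taken from the sample labels. The counts were fitted with edgeR 4.0.16 (R 4.3.3, TMM normalization, quasi-likelihood test, all 10 libraries in 1 fit without covariates), with calls at a fold change over 2 and p under 0.01 after adjustment by the Benjamini-Hochberg procedure. Standard errors and 95% intervals were derived from this test. By the codes, 3 animals gave 2 libraries each, and the methods give fewer mice than codes, so libraries are not fully independent. FPKM were computed from TMM-normalized CPM and the summed exon length of GENCODE M21 (GRCm38), and shares and sums of FPKM were tested with exact two-sided permutation tests (scipy 1.17.1). Alternatives were DESeq2 1.42.0, limma-voom 3.58.1, glmTreat, other scalings, filters and covariates, thinned counts, blocks, and leaving out each library. The procedure was tested on simulated data.

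Same-numbered libraries did not deviate together throughout (correlations between -0.363 and 0.573), so replicate numbers were not used as pairs. The 5 genes and the lists were chosen with earlier results of these data known. Text names the 5 genes, both nonmuscle alpha-actinins, up to 4 called genes per list and comparison with the largest changes, and the 3 closest genes by correlation; other genes are named to complete a list. Total counts ranged from 12737971 to 50431713 per library, and counts cover reads, not molecules.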

Additional observations from a re-analysis of the deposited data

Results flagged for a closer look

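Each of the 11 measures of these genes was searched for a soleus library apart from the other 3 with Dixon's ratio, which passes its 95% critical value by chance in about 1 of 20 groups of 4. The Myoz1 level of soleus 1 was 221 FPKM, against 114 to 129 in the other soleus libraries (ratio 0.858). The Myoz3 level of soleus 3 was 2.11 FPKM, against 0.916 to 1.03 in the others (ratio 0.907). Soleus 3 came from the youngest mouse, aged 32 days, and a link with age was not tested. Groups of 3 libraries were not searched.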

How the results depend on the processing

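Among 26 alternatives for each gene, Myoz2 was called in all of them against both fast muscles. The 4 called genes kept their direction in every alternative of both comparisons with soleus. Calls were lost in 1 alternative for Actn2, 3 for Actn3, and 4 for Myoz1 in soleus vs EDL, and in 5, 1, and 2 in soleus vs psoas. The cause was not tested. In psoas vs EDL, 2 of the 5 genes, Actn2 and Myoz3, were called by DESeq2, with the run proxy (trimming and age), and with sex as a covariate without soleus 3. By limma-voom, with trimming as a covariate, with the animal as a random effect, and at adjusted p under 0.05 without a fold threshold, 1 was called, and leaving out 1 library gave between 0 and 1. Leaving out 1 library gave 4 called genes in soleus vs EDL and between 3 and 5 in soleus vs psoas. With the replicate block in a fit of the 2 muscles alone, which changes both the block and the libraries fitted, 2 were called in each comparison with soleus, and of all genes 196 and 243 were called. In the fit of all libraries the block gave 146, 586, and 539 calls of all genes in psoas vs EDL, soleus vs EDL, and soleus vs psoas, against 340, 929, and 917. The untrimmed libraries alone, a setting chosen after seeing the data, gave 1 called gene of the 5 in each comparison with soleus, and 0, 48, and 33 of all genes. The lone EDL and psoas library is there assumed to vary like soleus.

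Signs turned for Myoz2 in psoas vs EDL in the untrimmed libraries (log2 fold change 0.20) and for Myoz3 in soleus vs EDL with trimming (-0.15), the run proxy (-0.47), or sex (-0.28) as a covariate, in the untrimmed libraries (-0.53), and without EDL 1 (-0.04) or soleus 3 (-0.17). Leaving out 1 library gave this Myoz3 difference a range from -0.17 to 0.75. In exact permutation tests, the Actn2 share in psoas minus EDL lay between -0.72 and 0.83 percentage points when 1 library was left out. The Myoz3 share in soleus minus both fast muscles lay between -0.071 and 0.060 points, was -0.18 without length correction and -0.039 in the untrimmed libraries. In the untrimmed libraries, the soleus differences were 78.5, -56.2, and 56.3 points for the Actn2, Myoz1, and Myoz2 shares, -1.93 in log2 for the alpha-actinin sum, and -0.78 for the calsarcin sum (exact permutation test, p = 0.133 each, the lowest possible for 4 and 2 libraries). Without length correction the calsarcin sum differed by -0.11 from both fast muscles and by 0.12 from EDL. Counts of all genes called in psoas vs EDL, soleus vs EDL, and soleus vs psoas were 1095, 1520, and 1382 by DESeq2, 27, 185, and 176 by glmTreat, 605, 371, and 566 with trimming, 757, 251, and 475 with the run proxy, and 1789, 2995, and 2340 without a fold threshold. Sex as a covariate gave 865 in psoas vs EDL, and the fit of EDL and psoas alone gave 153. Depth limits mainly Myoz3, with 46 to 412 reads per library.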
